A study of Homo sapiens with 12 samples.

Results

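The long noncoding RNAs NEAT1, MALAT1, TUG1, GAS5, SNHG1, SNHG5, SNHG12 and SNHG15 were followed across untreated and Paclitaxel-treated cultures of MDA-MB-231, a human triple negative breast cancer cell line. They were chosen by function, with earlier results of these data known, and taken by symbol. They are the 8 rows of 63568 gene identifiers in the count table whose Ensembl identifier carries 1 of these names. Each name matched 1 row. The cells carried a nuclear GFP reporter and were grown in Matrigel, a basement membrane gel in which they spread in 3 dimensions. Bulk RNA was sequenced from 12 samples, with 2 biological replicates in each of 6 conditions. C1 was untreated and taken on day 2, C2 was untreated and taken on day 4, and the other conditions received 0.0005, 0.005, 0.05 or 0.5 μM Paclitaxel on day 2 and were taken on day 4. The day of dosing is that of the labels, while the study's methods give a later day for its imaged cultures. All groups shared 1 cell line, the same reporter and the same gel, so the data describe this line alone.

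Long noncoding RNAs of these kinds work through RNA rather than protein. NEAT1 is the scaffold of paraspeckles, nuclear bodies that form around it, and MALAT1 gathers in nuclear speckles, where splicing factors are stored. GAS5 and the SNHG genes are hosts of small nucleolar RNAs (snoRNAs): the snoRNAs that guide chemical modification of ribosomal RNA are cut from their introns, and the spliced exons are often short-lived RNAs that are removed by nonsense-mediated decay when they are translated. Many snoRNA hosts begin their transcripts with a run of C and T letters, the 5′ terminal oligopyrimidine tract shared with ribosomal protein genes. Paclitaxel stabilises microtubules and arrests dividing cells.

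The sequence around the annotated start of 4 snoRNA hosts is shown because this tract is what places the hosts beside the genes of the translation machinery. Each window holds 40 bases before the start and 50 bases from the start onwards, on the strand of the gene, from RefSeq on GRCh38.p14, and capitals mark a C followed by at least 4 more pyrimidines that begins within 3 bases of the start.
SNHG12, chr1:28581824-28581913, minus strand: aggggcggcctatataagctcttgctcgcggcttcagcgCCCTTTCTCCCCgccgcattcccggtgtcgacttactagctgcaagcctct
SNHG5, chr6:85678684-85678773, minus strand: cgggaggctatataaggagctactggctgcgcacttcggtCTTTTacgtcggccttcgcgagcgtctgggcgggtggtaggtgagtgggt
SNHG1, chr11:62855836-62855925, minus strand: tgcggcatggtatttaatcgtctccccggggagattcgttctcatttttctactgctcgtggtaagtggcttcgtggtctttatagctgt
GAS5, chr1:173868996-173869085, minus strand: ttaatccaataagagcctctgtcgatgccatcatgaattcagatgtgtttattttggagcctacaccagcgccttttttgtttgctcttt
The tract was found at the start of SNHG12, with 12 letters, and of SNHG5, with 5 letters, and these letters were not in the same place in the SNHG1 and GAS5 windows. It occurred in 9.4% of the 35116 RefSeq start windows. The SNHG12 and SNHG5 windows also held TATAA on the strand of the gene between 45 and 16 bases before the start, which 4.1% of all windows did. TATAA and the tract overlap at no base in these windows. A match is a description of the letters and not a site, and annotated starts can differ from the starts used in these cells.

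Counts of single samples totalled 38380629 to 79169121, and all 8 RNAs were well covered, from 809 counts for SNHG12 in 1 sample to 73507 counts for MALAT1 in another. Levels are given as CPM, the count of a gene relative to the library total, scaled by TMM to correct for differences in library composition. The C1 replicates stood apart from each other. Their median absolute log2 difference over 12245 genes with a mean of at least 5 CPM was 0.42, against 0.062 to 0.164 in the other 5 conditions, and 1 of them had the largest and the other the smallest total. Mitochondrial genes held 3.03% to 6.27% of the counts. The summed level of 7 markers of mesenchymal breast cancer cells was 3762 to 4735 CPM in untreated and 3108 to 4279 CPM in treated samples. For the mean of the 4 doses against C2, 6 of the 7 were lower. Their median log2 fold change was -0.215, beside -0.10 over all genes with a mean of at least 5 CPM. Of 3 receptors that are low or absent in triple negative cells, ESR1 and PGR reached at most 0.46 and 0.0867 CPM, while ERBB2 was at 26.6 to 52.4 CPM. The 6 luminal epithelial markers summed to 630 to 770 CPM in untreated and 678 to 941 CPM in treated samples, nearly all of it from the keratins KRT8, KRT18 and KRT19, whereas CDH1, the defining E-cadherin gene, reached at most 0.201 CPM. Markers of leukocytes, fibroblasts and endothelial cells were low but not level between the groups. The 5 leukocyte markers summed to 0.447 to 0.699 CPM in untreated and 1.14 to 1.77 CPM in treated samples, the 7 fibroblast markers to 9.22 to 17.0 and 12.9 to 21.6 CPM, and the 2 endothelial markers found to 0.0298 to 0.704 and 0.540 to 1.15 CPM. Of these, PDGFRA (log2 fold change 3.06, SE 0.39, adjusted p = 0.000795), COL3A1 (1.77, SE 0.35, adjusted p = 0.0103) and CD14 (1.15, SE 0.22, adjusted p = 0.00804) were called higher by edgeR for the mean of the 4 doses against C2, at levels of at most 2.16, 1.52 and 1.62 CPM, and are named here after their values were seen. None of these markers was at 0 in every sample, and their part in the results below was not tested.

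On day 4 without drug, the order of levels per length was led by the short snoRNA hosts. Per kilobase of the canonical transcript, C2 held 253 CPM of GAS5 (222 and 283 in the 2 samples), 226 of SNHG5 (201 and 250), 82.5 of SNHG1 (75.7 and 89.4) and 48.9 of MALAT1 (41.0 and 56.9). TUG1 with 15.2, NEAT1 with 15.0, SNHG15 with 11.6 and SNHG12 with 11.5 CPM per kilobase followed. The ranges of GAS5 and SNHG5 overlapped. NEAT1, with 10.8 and 19.1, overlapped with TUG1, SNHG15 and SNHG12, and the last 2 with each other, so these differences were not larger than the spread between replicates. The order depends on the length used. Per kilobase of all annotated exons together, MALAT1 with 48.9 and GAS5 with 39.3 CPM led, with overlapping ranges.

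**Figure D1:**
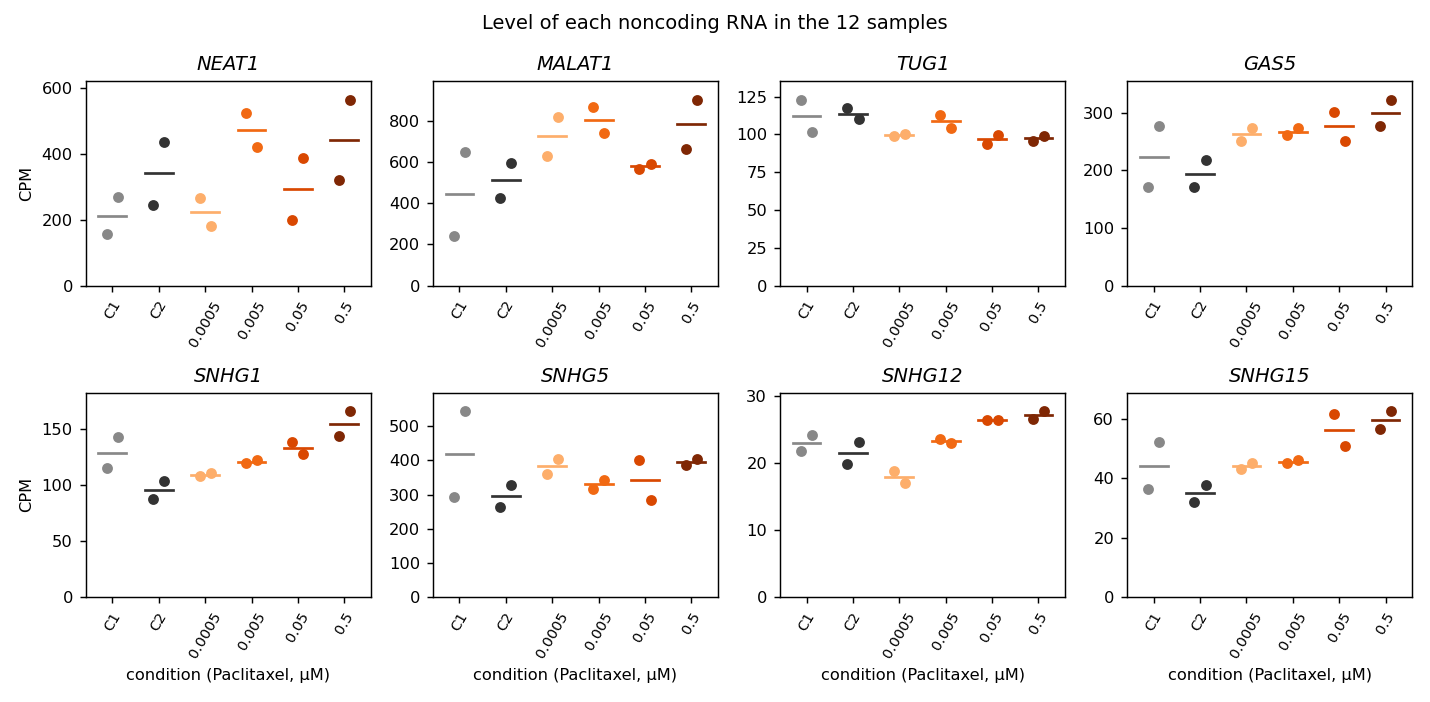
Level in CPM (y axis, from 0, a scale for each RNA) of the 8 noncoding RNAs in the 2 replicates (points) of each condition (x axis), with the mean of the pair as a line. SNHG1 and SNHG15 lay above both C2 samples at all 4 doses, whereas the NEAT1 pairs were 1.25- to 1.96-fold apart in every condition and MALAT1 was 2.71-fold apart in C1 (238 and 647 CPM) but at most 1.39-fold elsewhere.

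NEAT1 (chr11:65190245-65213011, GRCh37, plus strand), the paraspeckle scaffold, had the highest SD of log2 CPM of the group, within conditions and over the 12 samples, and was called at no dose, except at the lowest without a filter on low counts, as given below. Its level was 156 and 269 CPM in C1 and 246 and 435 CPM in C2. The treated samples held 266 and 180 CPM at 0.0005 μM, 526 and 420 at 0.005 μM, 198 and 389 at 0.05 μM, and 320 and 565 CPM at 0.5 μM. High and low samples were found in treated and untreated conditions alike, and each dose overlapped with C2. The log2 fold changes against C2 ran from -0.61 (SE 0.39) at 0.0005 μM to 0.47 (SE 0.39) at 0.005 μM, and the mean of the 4 doses differed from C2 by 0.01 (SE 0.31, adjusted p = 0.993). All p-values are from edgeR's quasi-likelihood test on counts with Benjamini-Hochberg adjustment over all genes tested, and a gene is called changed at an adjusted p under 0.05.

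MALAT1 (chr11:65265111-65275544, GRCh37, plus strand), the nuclear speckle RNA, was above C2 at most doses without passing the test over all samples, though it passed under some other settings. It stood at 238 and 647 CPM in C1 and at 428 and 594 CPM in C2. With Paclitaxel it was 629 and 821 CPM at 0.0005 μM, 867 and 743 at 0.005 μM, 565 and 593 at 0.05 μM, and 665 and 903 CPM at 0.5 μM. Both samples lay above both C2 samples at 0.0005, 0.005 and 0.5 μM and overlapped with C2 at 0.05 μM. The log2 fold changes against C2 were 0.51 (SE 0.36), 0.66 (SE 0.36), 0.18 (SE 0.35) and 0.62 (SE 0.36) with rising dose, and the adjusted p-values of 0.327 to 0.813 did not pass the test. The C1 pair entered the shared estimate of the spread and differed 2.71-fold in MALAT1. Without either C1 sample MALAT1 passed the test at 0.5 μM, with an adjusted p of 0.0254 without replicate 1 and 0.0288 without replicate 2, and its log2 fold change stayed near 0.61. The same held at 0.005 μM (0.0261 and 0.0272) and for the mean of the doses (0.0258 and 0.0264). Without a filter on low counts the adjusted p was 0.00882 at 0.005 μM, 0.0168 at 0.5 μM and 0.0132 for the mean of the doses, and with only the groups compared in the fit it was 0.0439 at 0.0005 μM, 0.0361 at 0.005 μM and 0.0288 for the mean. An antisense gene, TALAM1, covers 77.8% of the MALAT1 exons in the annotation, and without a stated strand of counting the reads of both cannot be told apart.

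TUG1 (chr22:31365231-31375381, GRCh37, plus strand), a broadly expressed RNA that the annotation lists as protein coding, was the steadiest of the 8. Its level was 123 and 102 CPM in C1, 117 and 110 in C2, 98.7 and 100.4 at 0.0005 μM, 113 and 104 at 0.005 μM, 93.8 and 99.5 at 0.05 μM, and 95.9 and 98.8 CPM at 0.5 μM. The highest sample was 1.31-fold above the lowest. Both treated samples lay below both C2 samples at 0.0005, 0.05 and 0.5 μM, but the differences were small, with a log2 fold change of -0.22 (SE 0.14, adjusted p = 0.353) at 0.5 μM and of -0.18 (SE 0.11, adjusted p = 0.322) for the mean of the 4 doses. TUG1 overlaps with 2 antisense genes over 2.6% and 5.4% of its exons.

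**Figure D2:**
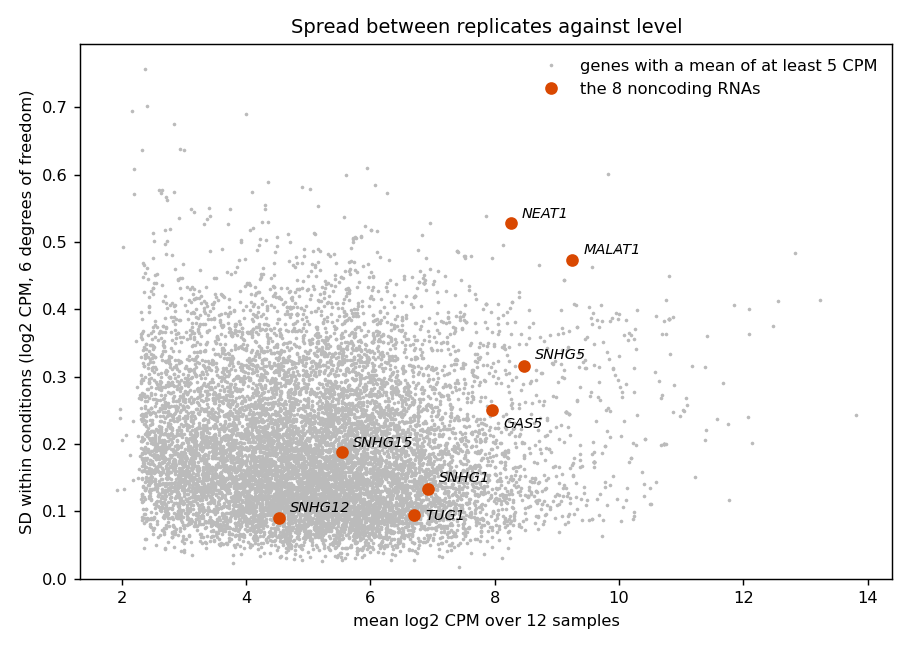
SD of log2 CPM within conditions (y axis) against mean log2 CPM over the 12 samples (x axis) for 12245 genes with a mean of at least 5 CPM (grey) and the 8 noncoding RNAs (orange). NEAT1 and MALAT1 lay near the top at 0.528 and 0.474, while SNHG12 and TUG1 lay near the bottom at 0.090 and 0.095.

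The 8 RNAs differed widely in the spread between replicates. The pooled SD within conditions, in log2 CPM, was 0.528 for NEAT1 and 0.474 for MALAT1, higher than in 99.7% and 99.1% of the genes compared. It was 0.316 for SNHG5, 0.251 for GAS5, 0.188 for SNHG15, 0.133 for SNHG1, 0.095 for TUG1 and 0.090 for SNHG12, against a median of 0.172 over all genes compared. With both C1 samples left out, added after the data were seen, NEAT1 stayed at 0.522 (99.8%), but MALAT1 had 0.249 (96.5%), SNHG5 0.198, GAS5 0.161, SNHG15 0.128, SNHG1 0.108, SNHG12 0.088 and TUG1, then the lowest, 0.058, against a median of 0.123. Over the range of all samples MALAT1 was the widest, 3.79-fold from lowest to highest against 3.62-fold for NEAT1. NEAT1, with the highest SD, had at least 9015 counts in each sample, and SNHG12, with the lowest SD with C1 included, had at most 2022.

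Among the snoRNA hosts, SNHG15 and SNHG1 rose with Paclitaxel against C2. SNHG15 (chr7:45022618-45026560, GRCh37, minus strand) stood at 36.5 and 52.0 CPM in C1 and at 31.8 and 37.9 CPM in C2. With Paclitaxel it was 43.0 and 45.1 CPM at 0.0005 μM, 45.1 and 46.1 at 0.005 μM, 61.6 and 50.9 at 0.05 μM, and 56.4 and 62.5 CPM at 0.5 μM. All 8 treated samples lay above both C2 samples, but 1 C1 sample, at 52.0 CPM, lay among the treated ones. The samples at the 2 upper doses lay above those at the 2 lower doses. Its mean was 34.8 ± 4.27 CPM (SD, n = 2) without drug on day 4 and 59.5 ± 4.28 CPM (SD, n = 2) with 0.5 μM Paclitaxel. Against C2 the log2 fold change was 0.69 (SE 0.18, adjusted p = 0.0338, edgeR) at 0.05 μM and 0.77 (SE 0.18, adjusted p = 0.0274, edgeR) at 0.5 μM, a 1.71-fold increase. At 0.0005 and 0.005 μM it was 0.34 (SE 0.18) and 0.39 (SE 0.18), with adjusted p-values of 0.354 and 0.266. The call at 0.5 μM was lost in 8 of 12 fits that left out 1 sample, namely either replicate of C2, 0.0005, 0.005 or 0.5 μM, with adjusted p-values of 0.0524 to 0.266, and the call at 0.05 μM was lost in 10 of 12, without any 1 sample other than C1, with 0.0522 to 0.256. The log2 fold change at 0.5 μM stayed between 0.65 and 0.89 in these fits.

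SNHG1 (chr11:62619450-62623425, GRCh37, minus strand), host of a cluster of C/D box snoRNAs, gave 115 and 143 CPM in C1 and 88.0 and 103.9 CPM in C2. Its treated levels were 108 and 110.4 CPM at 0.0005 μM, 119 and 123 at 0.005 μM, 139 and 128 at 0.05 μM, and 144 and 166 CPM at 0.5 μM. The pairs of the 4 doses did not overlap with each other or with C2, and the levels followed the order of the doses, while both C1 samples lay above C2 and within the range of the treated samples. Its mean was 95.9 ± 11.2 CPM (SD, n = 2) without drug on day 4 and 155 ± 15.7 CPM (SD, n = 2) with 0.5 μM Paclitaxel, a log2 fold change of 0.69 (SE 0.15, adjusted p = 0.0209, edgeR). The log2 fold changes at 0.0005, 0.005 and 0.05 μM were 0.19, 0.34 and 0.48 (SE 0.15 each), with adjusted p-values of 0.557, 0.253 and 0.0740. SNHG1 was called at 0.05 μM by DESeq2 (adjusted p = 0.0338). In edgeR it was called there with GC and length offsets (0.00618), with only the groups compared (0.0165) and with both C1 samples left out (0.00766). Other scalings and filters did not call it at that dose. The call at 0.5 μM was lost in 6 of 12 fits that left out 1 sample, namely either replicate of C2, 0.005 or 0.5 μM, with adjusted p-values of 0.0507 to 0.249 and a log2 fold change of 0.57 to 0.80.

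SNHG12 (chr1:28905050-28909644, GRCh37, minus strand) had the smallest spread between replicates of the 8 when C1 was included, and its pairs followed the order of the doses. It stood at 21.8 and 24.1 CPM in C1, 19.8 and 23.2 in C2, 18.9 and 17.1 at 0.0005 μM, 23.6 and 23.0 at 0.005 μM, 26.4 and 26.4 at 0.05 μM, and 26.7 and 27.7 CPM at 0.5 μM. The lowest dose lay below both C2 samples, the next overlapped with them, and the 2 upper doses lay above them, so that its log2 fold change against C2 went from -0.26 (SE 0.14) at 0.0005 μM to 0.34 (SE 0.14) at 0.5 μM. None of its comparisons with C2 passed the test over all samples, with an adjusted p of 0.162 at 0.5 μM. With both C1 samples left out it passed at that dose (log2 fold change 0.34, adjusted p = 0.0433, edgeR).

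GAS5 (chr1:173827697-173838020, GRCh37, minus strand), named for its rise in growth-arrested cells, was above C2 at every dose without passing the test over all samples, though it passed under several other settings. Its levels were 170 and 277 CPM in C1, 171 and 217 in C2, 251 and 274 at 0.0005 μM, 261 and 273 at 0.005 μM, 301 and 251 at 0.05 μM, and 276 and 322 CPM at 0.5 μM. All 8 treated samples lay above both C2 samples, but 1 C1 sample lay among the treated ones. The log2 fold change for the mean of the 4 doses was 0.51 (SE 0.18, adjusted p = 0.0925, edgeR), and it was 0.62 (SE 0.22, adjusted p = 0.109, edgeR) at 0.5 μM. The C1 pair was 1.63-fold apart in GAS5. Without C1 replicate 1 or replicate 2 the mean of the 4 doses passed the test, with adjusted p-values of 0.00505 and 0.00464 and log2 fold changes of 0.50 and 0.51. For the mean of the doses the adjusted p was 0.0461 by DESeq2, 0.0231 with GC and length offsets, 0.0109 without a filter on low counts, 0.00491 with only the groups compared in the fit and 0.0423 with both untreated days as control. At 0.5 μM it was 0.034 with the offsets, 0.0167 without a filter and 0.0304 with only the groups compared, and at 0.05 μM 0.0357, 0.0494 and 0.0236. With only the groups compared GAS5 was also called at 0.0005 and 0.005 μM (0.0334 and 0.0457).

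SNHG5 (chr6:86360209-86388650, GRCh37, minus strand) did not separate treated from untreated samples. It stood at 292 and 544 CPM in C1, 265 and 329 in C2, 360 and 405 at 0.0005 μM, 318 and 344 at 0.005 μM, 402 and 285 at 0.05 μM, and 387 and 403 CPM at 0.5 μM. The highest of all 12 values was in an untreated C1 sample, and the samples at 0.005 and 0.05 μM overlapped with C2. The log2 fold change was 0.41 (SE 0.26, adjusted p = 0.360, edgeR) at 0.5 μM.

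**Figure D3:**
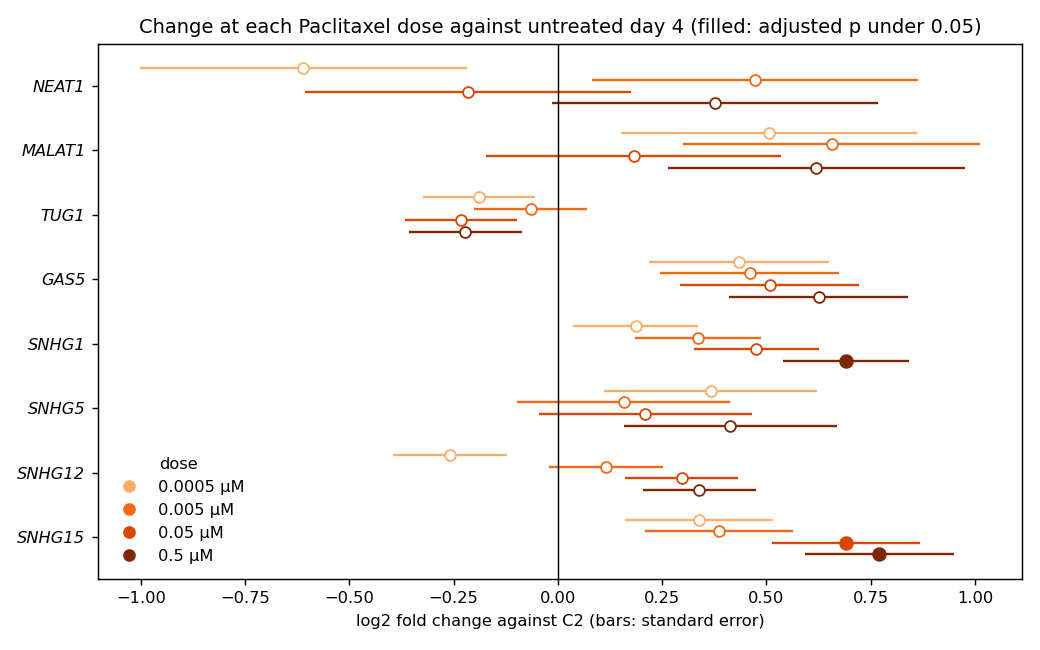
Log2 fold change against C2 (x axis) of the 8 noncoding RNAs (y axis) at 4 Paclitaxel doses (colours), with standard errors as bars and filled points where the adjusted p was under 0.05. Filled points are SNHG15 at 0.05 and 0.5 μM and SNHG1 at 0.5 μM, and the values of TUG1 lay below 0 at every dose, although with upper quartile scaling that at 0.005 μM was 0.05.

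Counted over the 8 RNAs, none was called at 0.0005 μM, where edgeR called 2.34% of the 25249 genes tested, and none at 0.005 μM, where it called 3.28%. DESeq2 also called none at either dose, and unadjusted p-values under 0.05 were reached by 0 and 2 of the 8, against 17% and 18.7% of all genes. At 0.05 μM 1 RNA was called higher, against 5.09% of all genes called higher, and at 0.5 μM 2 of 8 were, against 4.36%. None was called lower, where 3.23% and 1.96% of all genes were, and 4 of the 8 had an unadjusted p under 0.05 at each of these doses, beside 23.7% and 22.9% of all genes. With rising dose, both samples lay above both C2 samples in 5, 4, 4 and 6 of the 8 RNAs, while 27.1%, 32.9%, 26.1% and 31.7% of all genes did so. They lay below both C2 samples in 2, 0, 1 and 1, as did 25.9%, 29.3%, 26.9% and 27.3% of all genes. The median log2 fold change of the 8 was 0.26, 0.36, 0.25 and 0.52 with rising dose, beside -0.04, -0.11, -0.11 and -0.10 over all genes with a mean of at least 5 CPM. Taking the mean of the 4 doses against C2, SNHG1 (log2 fold change 0.42, SE 0.12, adjusted p = 0.0487, edgeR) and SNHG15 (0.55, SE 0.15, adjusted p = 0.0364, edgeR) were called higher, against 5.64% of all genes, and 3 of 8 had an unadjusted p under 0.05, against 25.4%. In SNHG1, SNHG15 and GAS5 all 8 treated samples lay above both C2 samples, as in 12.1% of all genes, and in none of the 8 RNAs did they all lie below, as in 11.3%. Both of these calls were close to the threshold. That of SNHG1 was lost in 10 of 12 fits without 1 sample, which were all but those without a C1 sample (adjusted p 0.0681 to 0.469), and that of SNHG15 in 9 of 12, which were all but those without a C1 sample or replicate 2 of 0.05 μM (0.0573 to 0.381). The 4 comparisons share the same 2 C2 samples, and with 2 samples against 2 an exact permutation test could not go below a two-sided p of 0.333.

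The counts of calls changed when the C1 pair, which stood apart, was taken out. With both C1 samples left out, an alternative added after the data were seen, edgeR called 0, 3, 3 and 5 of the 8 RNAs with rising dose and 4 for the mean of the doses, all of them higher, where 5.7%, 6.48%, 10%, 9.25% and 10.7% of all genes were called higher. The 5 at 0.5 μM were MALAT1 (adjusted p = 0.0311), GAS5 (0.00649), SNHG1 (0.000992), SNHG12 (0.0433) and SNHG15 (0.000539). The log2 fold changes at 0.5 μM were then 0.77 for SNHG15 and 0.61 for MALAT1, beside 0.77 and 0.62 with C1 in the fit. Calls over all genes in either direction also increased, from 1596 to 5033 at 0.5 μM, of which 2711 were lower, and from 2460 to 5647 for the mean of the doses. The cause was not tested.

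A slope over dose needs no untreated sample, and was fitted in the 8 treated samples alone on the log10 of the dose. SNHG12, SNHG1 and SNHG15 rose with dose in this fit. The slopes, as log2 change per 10-fold dose, were 0.20 (SE 0.04, adjusted p = 0.0150, edgeR) for SNHG12, 0.17 (SE 0.04, adjusted p = 0.0279, edgeR) for SNHG1 and 0.16 (SE 0.04, adjusted p = 0.0384, edgeR) for SNHG15. Of 25057 genes tested 1.04% were called with a rising and 2.11% with a falling slope. GAS5 with 0.06 (SE 0.04), SNHG5 with 0.02 (SE 0.05), MALAT1 with -0.01 (SE 0.07) and TUG1 with -0.03 (SE 0.04) had slopes close to 0. NEAT1 had the steepest slope of the 8, 0.21, but with a standard error of 0.17 it did not pass the test (adjusted p = 0.567), except without a filter on low counts (slope 0.20, adjusted p = 0.00731). The SNHG12 call was lost without either replicate of 0.0005 μM or replicate 2 of 0.5 μM (adjusted p 0.0507 to 0.152). That of SNHG1 was lost without these or replicate 2 of 0.005 μM (0.0593 to 0.219), and that of SNHG15 was kept only without replicate 2 of 0.05 μM (0.0506 to 0.251 in the other 7 fits). The slopes of all 3 stayed between 0.14 and 0.22 in these fits. Taken as a contrast in the fit of all 6 conditions, none of the 3 was called (adjusted p 0.0627 for SNHG12, 0.143 for SNHG1 and 0.219 for SNHG15), and 0.202% of all genes were called with a rising slope there.

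**Figure D4:**
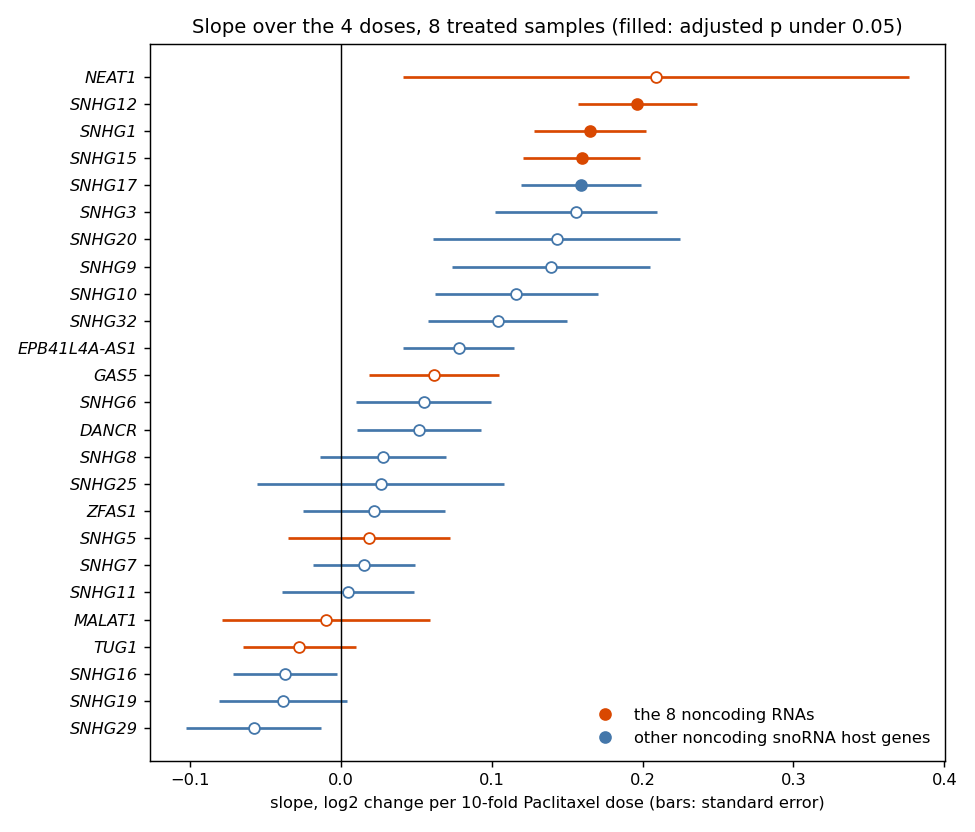
Slope over the 4 Paclitaxel doses in the 8 treated samples (x axis, log2 change per 10-fold dose, bars are standard errors) for the 8 noncoding RNAs (orange) and 17 other noncoding snoRNA hosts (blue), filled where the adjusted p was under 0.05. SNHG12, SNHG1, SNHG15 and SNHG17 are filled, with slopes of 0.16 to 0.20, and SNHG29 had the lowest slope at -0.06.

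Between days 2 and 4 without drug, no RNA of the 8 was called by edgeR or by DESeq2, while edgeR called 0.325% of all genes. SNHG1 alone had an unadjusted p under 0.05, which 10% of all genes had, with both C2 samples below both C1 samples, as in 15.3% of all genes, and a log2 fold change of -0.43 (SE 0.15, adjusted p = 0.384, edgeR). SNHG5 stood at -0.49 (SE 0.26), SNHG15 at -0.34 (SE 0.18), GAS5 at -0.20 (SE 0.21) and SNHG12 at -0.09 (SE 0.14), whereas NEAT1 stood at 0.68 (SE 0.39) and MALAT1 at 0.21 (SE 0.36). These values differed with single C1 samples left out. Without C1 replicate 1 the log2 fold change of MALAT1 was -0.34 and without replicate 2 it was 1.13 (adjusted p = 0.00721), and that of SNHG5 was -0.87 (adjusted p = 0.00863) without replicate 1 and 0.06 without replicate 2. SNHG1 with -0.57 and SNHG15 with -0.58 passed the test without C1 replicate 1 (adjusted p 0.0191 and 0.0208), whereas without replicate 2 they were -0.23 and -0.035 (adjusted p 0.39 and 0.933). NEAT1 was called higher on day 4 without a filter on low counts (0.67, adjusted p = 0.0306), and under the same setting lower at 0.0005 μM than in C2 (-0.60, adjusted p = 0.0334).

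The other noncoding snoRNA hosts were mostly above C2 in their mean over the doses, and 4 of them rose. Of 20 listed, 17 could be tested, 15 of these had a positive log2 fold change for the mean of the 4 doses, and their median was 0.27, beside -0.10 over all genes with a mean of at least 5 CPM. Called higher were 4 of the 17, against 5.64% of all genes, and 7 with both C1 samples left out, against 10.7%, and none was called lower. These were ZFAS1 (0.76, SE 0.21, adjusted p = 0.0410), SNHG32 (0.56, SE 0.13, adjusted p = 0.0166), EPB41L4A-AS1 (0.50, SE 0.13, adjusted p = 0.0292) and SNHG17 (0.45, SE 0.12, adjusted p = 0.0366), of which all but ZFAS1 are named here after their values were seen. SNHG8 had 0.62 (SE 0.19, adjusted p = 0.0580), and SNHG16 and SNHG3 were the lowest of those with a mean of at least 5 CPM, with -0.01 (SE 0.10) and 0.02 (SE 0.13). Below that level SNHG25 had -0.23 (SE 0.23). Without drug 15 of the 17 were lower in C2 than in C1. Their median log2 fold change from day 2 to day 4 was -0.31, beside -0.09 over all genes with a mean of at least 5 CPM. None of them was called by edgeR, and 4 had an unadjusted p under 0.05, against 10% of all genes. This shift was not particular to them. Also lower were 18 of 20 protein-coding hosts (median -0.25), 17 of 17 snoRNA maturation factors (-0.33) and 14 of 14 translation genes with the tract (-0.32). Of 14 other long noncoding RNAs 7 were lower (median -0.02). Of the 17 hosts only SNHG17 was called for a rising slope over dose, 0.16 (SE 0.04, adjusted p = 0.0424, edgeR).

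**Figure D5:**
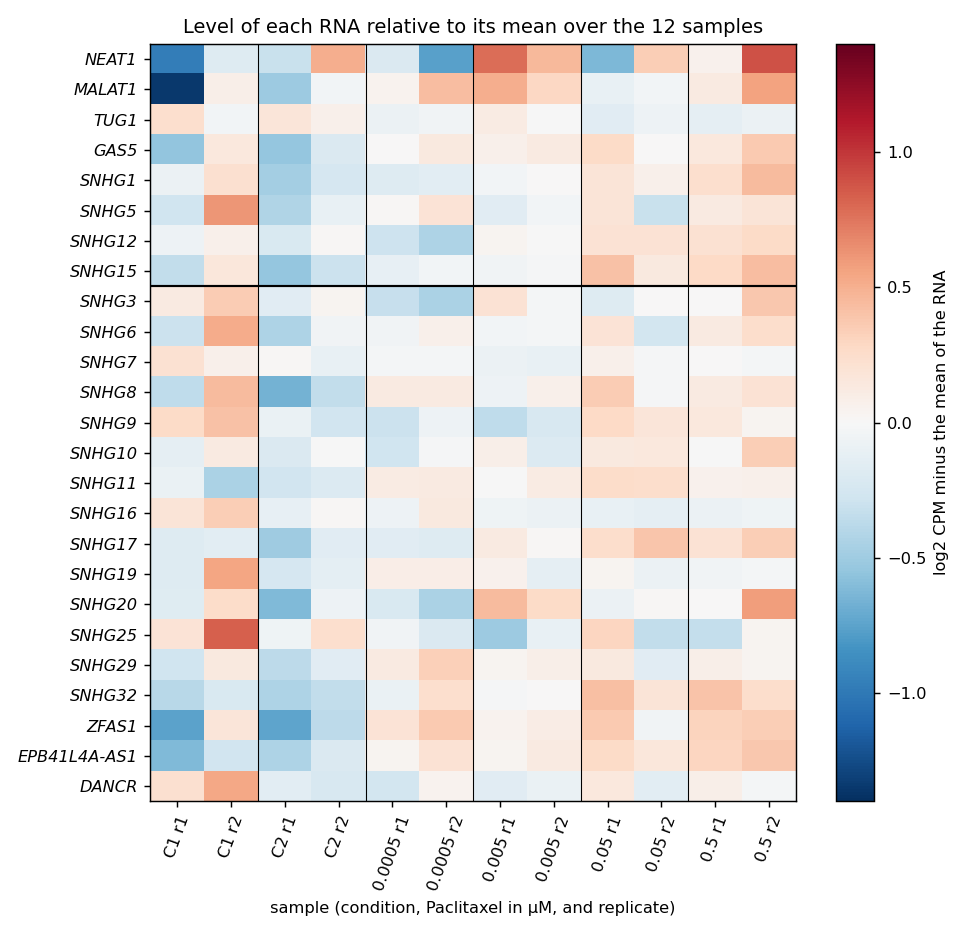
Log2 CPM of the 8 noncoding RNAs (above the line) and 17 other noncoding snoRNA hosts (below) in the 12 samples (columns, r1 and r2 being replicates), relative to the mean of each RNA. C2 replicate 1 is low for most hosts, the C1 replicates differ in most rows, and SNHG1, SNHG12 and SNHG15 are higher at 0.05 and 0.5 μM than at 0.0005 μM.

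Protein-coding snoRNA hosts outside the ribosomal proteins gave no call against C2. None of the 20 tested was called at any dose or for the mean of the 4 doses, where none had an unadjusted p under 0.05, against 25.4% of all genes, and their median log2 fold change was 0.03. EEF1B2, an elongation factor subunit, had 0.35 (SE 0.21), TAF1D, a subunit of the RNA polymerase I selectivity factor, 0.30 (SE 0.15), and PPAN and SNX5 were lowest with -0.27 (SE 0.12) and -0.24 (SE 0.11). DESeq2 called none of them either, and with both C1 samples left out 1 was called higher and 1 lower, against 10.7% and 11.8% of all genes. Over dose, TAF1D was the only one called, with a slope of 0.20 (SE 0.04, adjusted p = 0.0133). The difference between the noncoding and the coding hosts was not tested.

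The machinery that processes snoRNAs and removes host transcripts gave no call by edgeR or DESeq2 for the mean of the 4 doses with all 12 samples. Of 17 snoRNP and maturation factors none was called and none had an unadjusted p under 0.05, against 25.4% of all genes, their median change being 0.08 on the log2 scale, and the methyltransferase fibrillarin, FBL, had -0.11 (SE 0.11). Of 14 nonsense-mediated decay factors none was called and 1 had an unadjusted p under 0.05, with a median of -0.03. UPF2 stood at 0.25 (SE 0.11) and CASC3 at -0.23 (SE 0.15). With both C1 samples left out 1 of these 14 was called higher, against 10.7% of all genes. Of 14 translation genes with a 5′ oligopyrimidine tract none was called and none had an unadjusted p under 0.05, with a median of 0.08 and TPT1 at 0.31 (SE 0.20). The snoRNAs themselves could not be followed. Of 25 listed as carried by the hosts 16 were found in the table and only 2 passed the filter on low counts, SNORD78 of GAS5 with 0.239 to 0.754 CPM and SNORD99 of SNHG12 with 0.204 to 0.662 CPM, and neither was called. SNORD78 lies within an annotated GAS5 exon on the same strand, so reads there cannot be told apart from those of GAS5.

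Genes of the protein partners of NEAT1 and MALAT1 were mostly below C2 in their mean over the doses, and few were called. The median of all genes with a mean of at least 5 CPM was also below C2, at -0.10. All 18 paraspeckle proteins had a negative log2 fold change for the mean of the 4 doses, with a median of -0.21, but edgeR called none, DESeq2 called 1 lower, against 5.63% of all genes, and 4 had an unadjusted p under 0.05 by edgeR, against 25.4%. NUDT21, a cleavage factor, had -0.37 (SE 0.12, adjusted p = 0.0623) and SFPQ, a core paraspeckle protein, had -0.08 (SE 0.13). Of 22 nuclear speckle proteins 21 were negative, with a median of -0.16, and 2 fell, against 4.1% of all genes called lower. They were the splicing factors SRSF10, at -0.47 (SE 0.13, adjusted p = 0.0434), and SRSF2, at -0.43 (SE 0.11, adjusted p = 0.0274), while SRSF3 had 0.05 (SE 0.13) and SRRM2 -0.02 (SE 0.19). With upper quartile scaling the median of all genes with at least 5 CPM was 0.00 in place of -0.10. The paraspeckle median was then -0.12, with 16 of 18 negative, and the speckle median -0.06, with 16 of 22 negative and 1 called lower. With both C1 samples left out 4 of the 18 and 5 of the 22 were called lower, against 11.8% of all genes. None of 12 factors for the 3′ ends of MALAT1 and NEAT1 was called, by either tool, and none had an unadjusted p under 0.05, with a median of 0.05. Without drug all 18 paraspeckle and 18 of 22 speckle genes were lower in C2 than in C1, with medians of -0.265 and -0.165. Over the doses 15 of the 18 and 18 of the 22 had a positive slope.

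Of 14 other long noncoding RNAs tested, neither edgeR nor DESeq2 called any for the mean of the 4 doses and 6 had an unadjusted p under 0.05 by edgeR, against 25.4% of all genes, with a median of 0.07. At 0.05 μM OIP5-AS1 was called lower (-0.54, SE 0.14, adjusted p = 0.0328) and over dose DLEU2 was called with a rising slope (0.22, SE 0.05, adjusted p = 0.0200), both named after their values were seen. With both C1 samples left out 3 were called higher and 3 lower, against 10.7% and 11.8% of all genes. LINC-PINT had 0.48 (SE 0.19), KCNQ1OT1 0.45 (SE 0.29), MIR22HG -0.35 (SE 0.14) and TERC, the telomerase RNA, -0.50 (SE 0.21). Of the RNAs that carry no poly(A) tail, RN7SK was 1.81 to 5.80 CPM in untreated and 7.96 to 10.8 CPM in treated samples, with no overlap, and RN7SL2 was 301 to 364 and 343 to 787 CPM, with overlap. None of the 6 tested was called by edgeR for the mean of the 4 doses, though 5 had an unadjusted p under 0.05, against 25.4% of all genes. DESeq2 called 2 higher, against 6.34%. With both C1 samples left out 3 of the 6 were called higher and 1 lower, against 10.7% and 11.8% of all genes. The 13 mitochondrial genes had a median of -0.20 with none called by either tool and 1 with an unadjusted p under 0.05. The part of these RNAs in the levels of the 8 RNAs was not tested, and bulk RNA does not tell fewer cells with an RNA from less of it per cell.

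The genes whose profile over the 12 samples lay closest to each RNA differed between hosts. Likeness was measured as the root mean square difference in log2 CPM after centring each gene, over 11090 genes, and it is a description of 12 samples that share depth and scaling. SNHG5 was closest to the ribosomal protein genes RPL10A at 0.03, RPL12 at 0.043 and RPL19 at 0.048. GAS5 was closest to ZNF267 at 0.06, RB1CC1 at 0.079 and RAB30-DT at 0.087, SNHG1 to NOL8 at 0.087, RNASEH1-DT at 0.092 and THUMPD2 at 0.094, SNHG15 to LETM2 at 0.074, LL22NC03-N64E9.1 at 0.095 and FAM200A at 0.101, and SNHG12 to PTBP2 at 0.102, GAD1 at 0.104 and BCS1L at 0.108. TUG1 was closest to TAOK1 and VPS13B at 0.05 and AVL9 at 0.051. The closest genes to NEAT1, at 0.134 to 0.143, were LINC00641, FKBP11 and GOLGA8A, and those to MALAT1, at 0.23 to 0.251, were ZNF222, KDM7A and LINC-PINT. Among the 8 RNAs the closest pair was SNHG1 and SNHG15 at 0.113, followed by GAS5 and SNHG15 at 0.124, and the farthest was NEAT1 and SNHG5 at 0.658. NEAT1 and MALAT1, whose genes lie beside each other on chromosome 11, were 0.472 apart.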

How the data were processed

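RNA was measured in 12 samples. Per the study's methods, the authors trimmed reads with Trimmomatic 0.39, aligned them to GRCh37 with STAR 2.7.5 and kept unique alignments, and the deposited values are raw integer counts of reads in the exons of each gene, neither normalized nor pooled. Whether counting used strand, and whether libraries were selected for poly(A) or depleted of ribosomal RNA, is not given in the sources used here. Unique alignment can lose reads shared with copies of a gene. Counts were analysed in R 4.3.3 with edgeR 4.0.16 (TMM, filterByExpr over the 6 conditions, robust quasi-likelihood F test, 25249 genes), and DESeq2 1.42.0 was an alternative. The spread was estimated once over all 12 samples, leaving 6 degrees of freedom. Alternatives changed the tool, scaling, filter, samples and offsets. Log2 CPM used a prior count of 2. Simulated data of this design were drawn with the same spread in every gene and condition. There, at 0.5 μM against C2, edgeR recovered 75% of 100 genes changed by 1 on the log2 scale (24171 genes). It recovered 4% of 100 changed by 0.5, and for the slope 80% at 0.333 and 9% at 0.167 (23812 genes). DESeq2 recovered 88% and 15% at 0.5 μM, with 15.6% of its calls false, against 6% for edgeR. These shares do not hold for RNAs that vary more, such as NEAT1 and MALAT1, or for the unequal C1 pair. Coordinates and lengths came from GENCODE on GRCh37, and 6 of the 8 RNAs had a RefSeq start window. The 8 RNAs and all gene lists were chosen by function with earlier results of these data known. A rule allowed at most 4 genes with a mean of at least 5 CPM to be named from each list. These were the 2 highest and 2 lowest for the mean of the 4 doses. Further genes were named after their values were seen. Replicates were described as biological, and p-values measure the spread between these samples.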

Additional observations from a re-analysis of the deposited data

How the results depend on the processing

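Of 1224 values of single RNAs under other settings, none reversed a called direction, 63 lost and 58 gained a call, and 34 values not called in either fit changed sign. The number of the 8 RNAs called was, against 0 at 0.0005 μM, 1 without a filter on low counts and 2 with only the groups compared in the fit, and against 0 at 0.005 μM, 1 and 2. Against 1 at 0.05 μM it was 2 with DESeq2, 2 without a filter, 3 with GC and length offsets and 3 with only the groups compared. Against 2 at 0.5 μM it was 4 without a filter and 3 with the offsets or with only the groups compared, and against 2 for the mean of the doses 4 without a filter, 4 with only the groups compared and 3 with the offsets or DESeq2. With both C1 samples left out, added after seeing the data, the fit called 3 RNAs at 0.005 μM, 3 at 0.05 μM, 5 at the highest dose and 4 for the mean of the doses. Against 0 between days 2 and 4 it was 1 without a filter. Over all genes these fits called 12%, 11%, 12.6% and 22.5% in either direction with only the groups compared at 0.0005, 0.005 and 0.05 μM and for the mean of the doses, 11.4% with only the groups compared at 0.5 μM, 12.4%, 11% and 14.4% with the offsets at 0.05 and 0.5 μM and for the mean, 10.6% and 12% with DESeq2 at 0.05 μM and for the mean, and 0.797% to 6.89% without a filter over these comparisons. The 3 slopes called became 0 when taken as a contrast of all 6 conditions. Leaving out 1 sample gave 0 to 3 called at 0.005 and 0.05 μM, 0 to 5 at 0.5 μM, 0 to 4 for the mean of the doses, 0 to 3 between the days and 0 to 3 for the slope, while the share of all genes called ran from 0.316% to 12.4%, 1.19% to 18.1%, 0.48% to 18.8%, 0.882% to 21.1%, 0.175% to 10% and 0.463% to 3.8% in these fits. The sample left alone in its condition is then assumed to vary like the others. The cause of these changes was not tested. Replicate numbers did not pair the samples: over 15 pairs of conditions the correlation of same-numbered deviations ran from -0.6 to 0.68 with 7 below 0.1. With the replicate block 1 slope of 3 was called, those of SNHG1 and SNHG15 being lost (adjusted p 0.0548 and 0.0730), and calls over all genes for the slope went from 789 to 421. The SNHG1 call for the mean of the doses was lost with both untreated days as control (adjusted p = 0.117). Upper quartile scaling changed the split of all calls at 0.05 μM from 1285 higher and 815 lower to 1433 and 459, at 0.5 μM from 1101 and 495 to 1224 and 315, and for the mean of the doses from 1425 and 1035 to 1661 and 585. Over all genes DESeq2 called 1173 in place of 592 at 0.0005 μM, 1362 in place of 827 at 0.005 μM, 271 in place of 82 between the days and 1690 in place of 789 for the slope.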
